A study of Mus musculus with 24 samples.

Results

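The comparison described here is the passage of control mouse lungs from embryonic day 16 (E16) to the day of birth (P0). Its members are 8 bulk RNA-seq libraries of 24 in the series, 4 titled P0 controls and 4 titled E16 controls, chosen by title alone. The other libraries are Sin3a conditional knockout (CKO) lungs of the same stages and the lungs of postnatal day 3. P0 control lungs were whole lungs of the genotype Tbx4rtta; tetocre; Sin3a F/+, from dams that were fed doxycycline from embryonic day 12. E16 control lungs had the same genotype and the same doxycycline feeding. The Tbx4rtta transactivator is active in lung mesenchyme and drives tetocre, a Cre under a tetO promoter, when doxycycline is present. Both control groups thus carry Cre and 1 floxed Sin3a allele, and no lung without these alleles was part of the comparison.

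In the mouse, E16 falls in the pseudoglandular to canalicular period, in which branching tubes tipped by Sox9-positive progenitors still invade a thick mesenchyme. By birth the distal tubes have become thin-walled sacs lined by flat alveolar type 1 cells, which exchange gas, and cuboidal type 2 cells, which make surfactant. In the same period capillaries come to lie under the epithelium, fetal glucocorticoid rises, and at birth the lung turns from secreting liquid to absorbing it.

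Levels are in CPM, counts relative to the library total after trimmed-mean (TMM) scaling, and changes are log2 fold changes of P0 over E16 with their standard error (SE). P-values come from the quasi-likelihood test of edgeR, adjusted by Benjamini and Hochberg's method over all genes tested, and a gene is called at an adjusted p under 0.05. Values in 4 libraries of a group are given in the order of replicates 1 to 4. Library totals were 29499032 to 36158268 counts at P0 and 28006369 to 36256804 at E16. Replicates are separate lungs by their titles. The labels speak of libraries made per stage, so stage and preparation cannot be told apart. Library identifiers begin with a prefix whose meaning the labels do not give. No prefix was shared by the stages, E16 replicates 3 and 4 shared one, and control and CKO lungs of a stage shared prefixes.

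Markers of lung epithelium, mesenchyme and endothelium were present in all 8 libraries. Nkx2-1 was at 180.4, 184, 127 and 179 CPM at P0, against 239, 246, 226 and 212 CPM at E16. P0 lungs had 258, 218, 122 and 210.0 CPM of Tbx4, against 246, 231, 216 and 184 CPM in E16 lungs. The level of Cdh5 was 1255, 863, 511 and 914 CPM in P0 lungs and 489, 472, 494 and 453 CPM in E16 lungs. The first is a transcription factor of lung epithelium, the second one of lung mesenchyme and the third a cadherin of endothelium, and none was near 0 in any library.

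P0 replicate 3 stood apart. It carried RNA of thymus, of which Rag1, a recombinase of developing lymphocytes, and Cd8a, a T cell coreceptor, are markers. For Rag1, P0 lungs gave 1.25, 2.87, 806 and 0.485 CPM and E16 lungs 0.132, 0.103, 0.166 and 0.369 CPM. Cd8a measured 0.519, 1.11, 367 and 0.421 CPM at P0, with 0, 0.0342, 0.0332 and 0.0851 CPM at E16. The summed level of the 24 thymus genes was 851, 487, 3965 and 399.6 CPM at P0 and 419, 407, 429 and 406 CPM at E16, and the same library led the oesophagus list, with 19.4, 32.0, 647 and 29.7 CPM at P0 and 13.3, 17.5, 18.2 and 12.5 CPM at E16, and the brown fat list, with 112, 17.0, 326 and 19.3 CPM at P0 and 15.4, 14.9, 17.6 and 20.1 CPM at E16. Heart muscle genes were higher in every P0 library, at 1548, 1139, 2462 and 1057 CPM at P0 and 229, 628, 341 and 266 CPM at E16, with 13 of 16 tested members called higher (12 without replicate 3), 1 of the 16 having passed the filter only through the P0 libraries. The cartilage list summed to 120.1, 69.5, 74.7 and 53.3 CPM at P0 and 131, 203, 124 and 118 CPM at E16. Skeletal muscle genes summed to 170, 98.5, 273 and 88.3 CPM at P0 and 19.3, 109, 36.1 and 32.0 CPM at E16. E16 replicate 2 was thus the highest E16 library for heart muscle, cartilage and skeletal muscle. Because of the thymus RNA, results are given with all libraries and, where the count or the call differs, without P0 replicate 3. P0 replicate 1 stood apart in a different set of genes, those of immediate early and glucocorticoid response, given below. Xist, the RNA of the inactive X chromosome, was above 100 CPM in 3 of 4 P0 and in 1 of 4 E16 libraries, so the sexes were unequally spread over the stages.

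**Figure D1:**
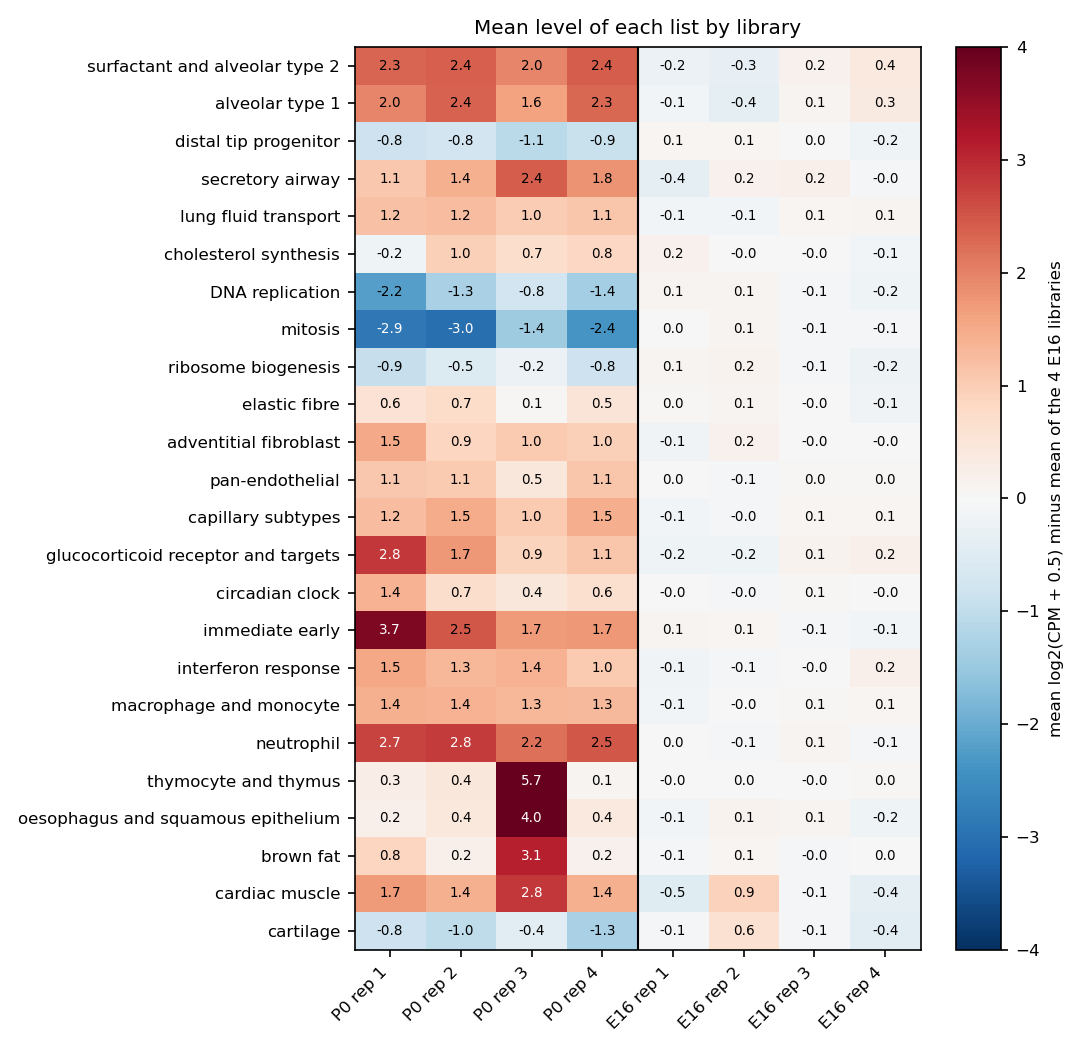
Mean log2(CPM + 0.5) over the members of 24 gene lists (rows) in each library (columns, P0 left of E16), given as the difference from the mean of the 4 E16 libraries. Mitosis and DNA replication are low in all 4 P0 libraries, the thymus, oesophagus and brown fat lists are high in P0 replicate 3, and the immediate early list is highest in P0 replicate 1.

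Of 51912 genes in the table, 17116 passed the filter on low counts. At P0 3955 genes were higher (23.1% of genes tested) and 3445 were lower (20.1%) than at E16, and 2368 of the higher and 1305 of the lower genes changed by a log2 value of 1 or more. The CPM ranges of the groups did not overlap in 7252 genes (42.4%). Without P0 replicate 3, 4438 genes (25.6%) were higher and 4138 (23.9%) lower of 17315 tested, 7091 of the 7400 calls were kept in their direction, 309 were lost and 1395 were gained among genes tested in both fits. The median log2 change of all genes was 0.04, and it was -0.07 when libraries were scaled to their totals alone. The counts of the gene lists below are read against the shares of all genes, and the collagen, laminin, smooth muscle and mesenchymal transcription factor lists were among those with shares near them. A gene that passed the filter only through 1 group, having no library of the other group at the filter's level, had to differ, so its call, and list counts and medians that hold it, are descriptions. Genes with some libraries of a group below that level were not counted among these, such as Pon1, Fosb, S100g and Ptgs2 at E16. Their passing rested in part on the P0 libraries, so their p-values and the list counts that hold them call for the same care. In whole lungs a larger share of cells of a type and more RNA per cell cannot be told apart, which holds for every result here.

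**Figure D2:**
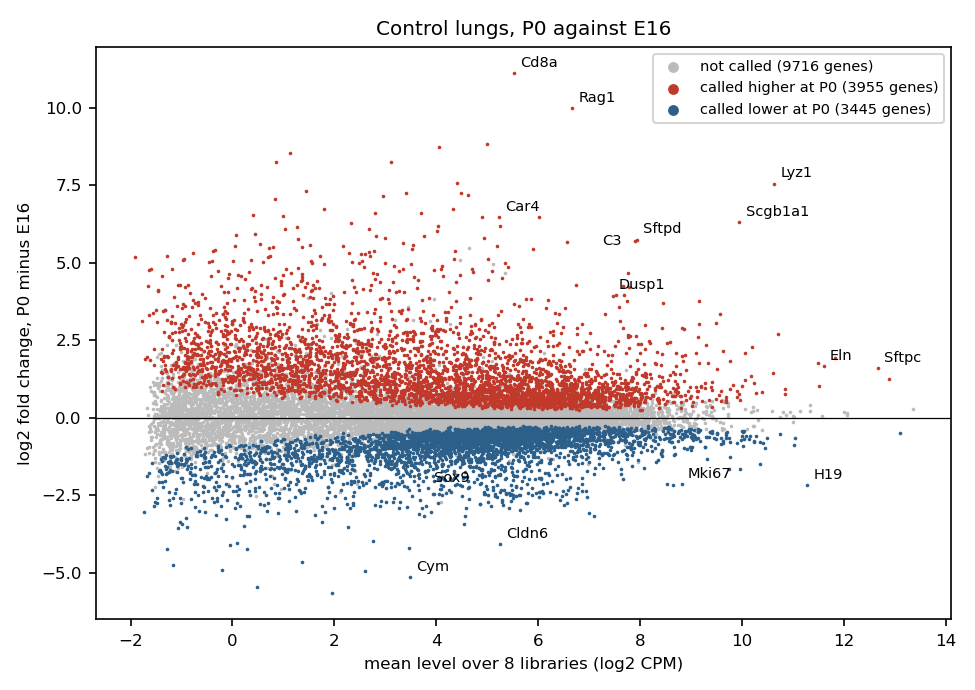
Log2 fold change of P0 over E16 (vertical axis) against the mean log2 CPM of the 8 control libraries (horizontal axis), 1 point a gene, with called genes in colour. Lyz1, Scgb1a1 and Sftpd lie far above 0 and H19, Mki67 and Cym below it, while Cd8a and Rag1 owe their place to P0 replicate 3.

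Among the 10 genes that rose most at a mean log2 CPM of at least 3, called and with groups that did not overlap with or without P0 replicate 3, were products of alveolar epithelium, mesenchyme, capillaries and myeloid cells. Predicted loci, sex-linked genes and members of the lists of other tissues, such as Cd8a of the thymus list and cartilage genes, were passed over in this rule. Lyz1 was at 4309, 2905, 2591 and 2861 CPM at P0, against 6.88, 5.14, 19.1 and 36.2 CPM at E16. This lysozyme, made by type 2 cells and Paneth cells, had a log2 change of 7.55 ± 0.70 (SE), adjusted p = 0.000126, and its log2 change was 8.25 without E16 replicate 4, the highest E16 library. P0 lungs had 62.4, 188, 107 and 154 CPM of Chil1, against 1.11, 1.301, 1.33 and 1.93 CPM in E16 lungs. Chil1 encodes a chitinase-like protein. Every P0 library was far above every E16 library (log2 change of 6.49 ± 0.40 (SE), adjusted p = 2.55e-05). The level of Inmt was 78.1, 49.0, 55.7 and 53.4 CPM in P0 lungs and 0.448, 0.308, 0.432 and 1.39 CPM in E16 lungs. Inmt, a methyltransferase of alveolar fibroblasts, was likewise separated (log2 change of 6.49 ± 0.46 (SE), adjusted p = 4.09e-05), with a log2 change of 7.19 without E16 replicate 4. For Pon1, P0 lungs gave 49.6, 17.7, 21.4 and 13.8 CPM and E16 lungs 0, 0.137, 0.166 and 0.737 CPM. Pon1 encodes the lipoprotein-bound esterase paraoxonase 1, which had a log2 change of 6.59 ± 0.84 (SE), adjusted p = 0.000484 (8.02 without E16 replicate 4). Chil3, a chitinase-like protein of macrophages and neutrophils (7.39 to 34.8 CPM at P0, 0.0342 to 0.255 at E16) that passed the filter only through the P0 libraries, Fosb, an AP-1 subunit (2.20 to 143 CPM at P0, 0.199 to 0.527 at E16, at most 8.29 without P0 replicate 1), and Car4, a carbonic anhydrase of alveolar capillaries (42.6 to 107 CPM at P0, 0.527 to 1.06 at E16), were in the same set. So were Trbc1, Trbc2 and Ccr9, T cell genes whose highest library was the one with thymus RNA. Trbc2 measured 0.969, 1.79, 251 and 0.582 CPM at P0, with 0.0790, 0.137, 0.0996 and 0.227 CPM at E16. Without replicate 3 its log2 change was 2.98 (adjusted p = 0.0019), and 8.83 with it. Trbc1 and Trbc2 passed the filter only through the P0 libraries and so had to differ. Trbc1 was at 130 CPM in P0 replicate 3, at most 0.969 in the other P0 libraries and at most 0.133 at E16.

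By the same rule, the 10 genes that fell most included Cym, which encodes the milk-clotting protease chymosin. Cym was at 0.346, 0.717, 0.763 and 0.615 CPM at P0, against 23.0, 21.5, 21.7 and 20.2 CPM at E16. All P0 libraries lay below all E16 libraries (log2 change of -5.13 ± 0.25 (SE), adjusted p = 8.27e-06). P0 lungs had 4.19, 5.31, 4.06 and 3.59 CPM of Cldn6, against 79.3, 87.8, 69.4 and 51.9 CPM in E16 lungs. Claudin 6, a tight junction protein of embryonic epithelia, had a log2 change of -4.07 ± 0.21 (SE), adjusted p = 1.23e-05. Adamts18, a secreted metalloprotease, was at 0.538 to 1.87 CPM at P0, 19.7 to 22.9 at E16. Fmod, the collagen-binding proteoglycan fibromodulin, was at 20.9 to 32.4 CPM at P0, 130.4 to 293 at E16. Ccl11, the eosinophil chemokine eotaxin, was at 3.19 to 7.44 CPM at P0, 39.3 to 51.0 at E16. Slitrk6, a leucine-rich membrane protein, was at 0.484 to 5.48 CPM at P0, 19.6 to 26.6 at E16. Ppp1r3b, which targets protein phosphatase 1 to glycogen, was at 17.6 to 41.8 CPM at P0, 222 to 283 at E16. The remaining 3 genes, Psrc1, Parpbp and Kif2c, belong to spindle or DNA repair functions, and Kif2c, a microtubule depolymerase of the mitotic centromere, was at 5.52 to 23.1 CPM at P0, 80.9 to 104 at E16. The groups did not overlap for any of these genes, as the rule required.

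**Figure D3:**
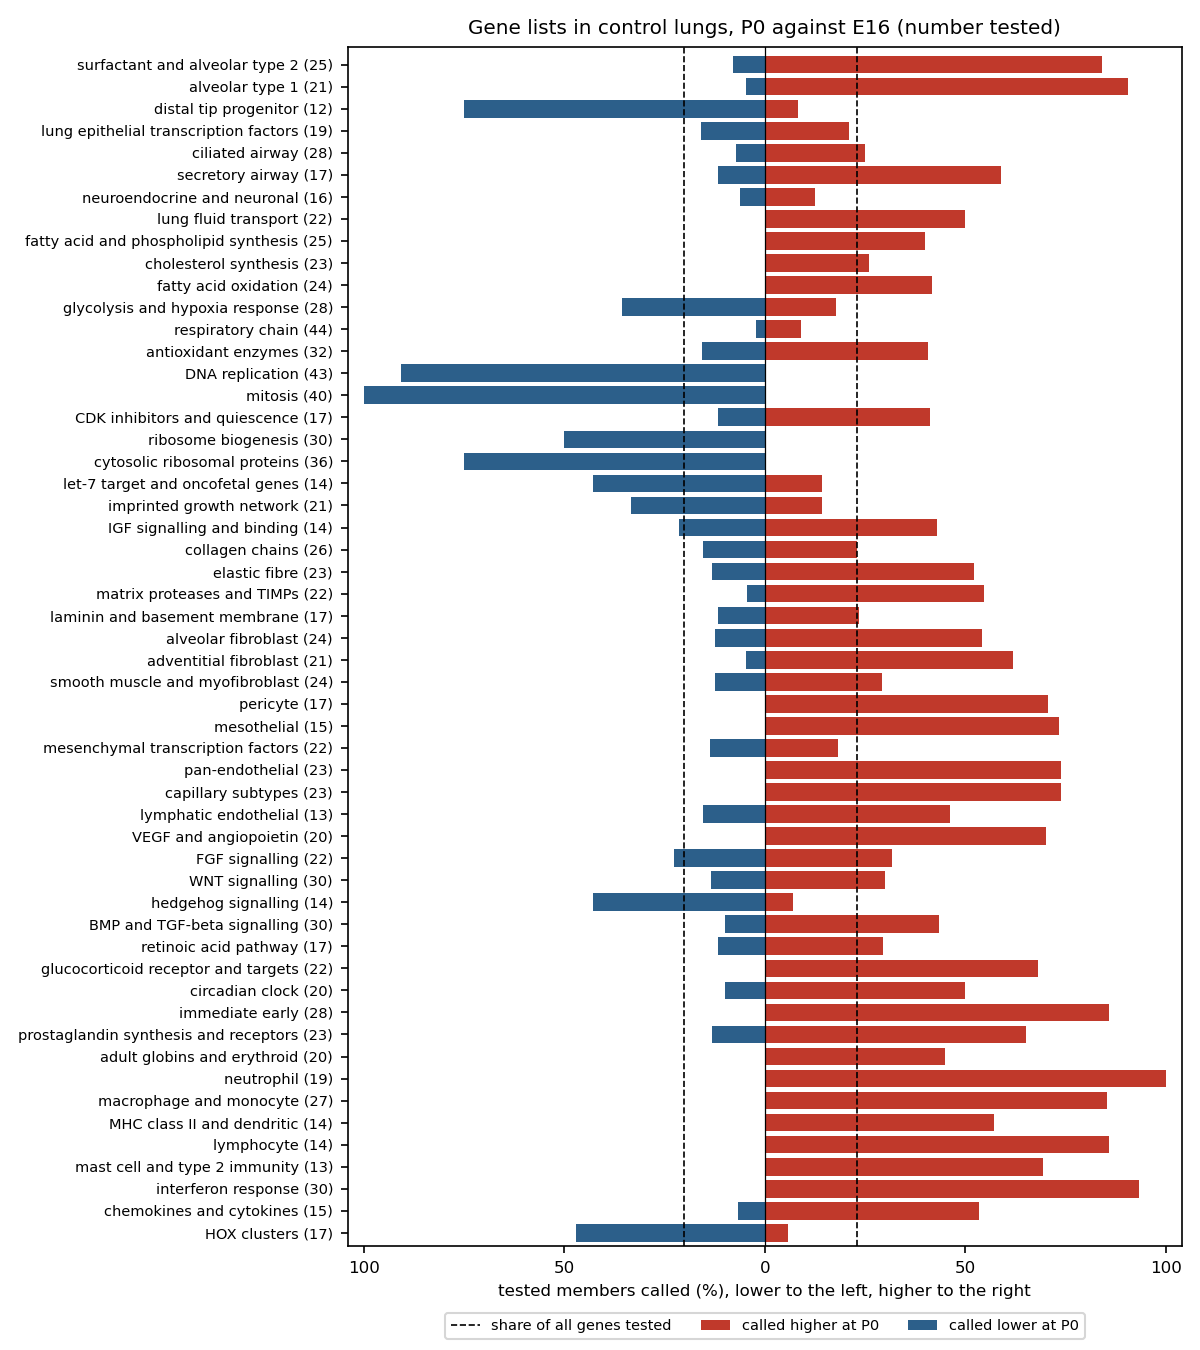
Share of tested members called higher (right of 0) and lower (left of 0) at P0 for each gene list, with the number tested in parentheses and dashed lines at the shares of all genes tested, 23.1% higher and 20.1% lower. Neutrophil, interferon and alveolar type 1 lists lie furthest to the right, and mitosis and DNA replication furthest to the left.

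Most surfactant and alveolar genes rose. In the list of surfactant and type 2 genes 21 of 25 tested members were higher and 2 lower at P0, with a median log2 change of 1.76 (22 and 2 of 25 without replicate 3), against 23.1% higher and 20.1% lower of all genes. Surfactant protein C, a hydrophobic protein of the surfactant film, was present in all libraries. The level of Sftpc was 9868, 10661, 7451 and 11191 CPM in P0 lungs and 2903, 2611, 3449 and 3818 CPM in E16 lungs. All 4 P0 libraries were above the E16 libraries, replicate 3 being the lowest of P0 (log2 change of 1.62 ± 0.18 (SE), adjusted p = 0.000259). For Sftpd, P0 lungs gave 285, 714, 326 and 602 CPM and E16 lungs 6.30, 4.18, 9.73 and 15.6 CPM. This collectin of airspace defence had the larger change (log2 change of 5.75 ± 0.51 (SE), adjusted p = 9.68e-05). Sftpa1 measured 1576, 1539.6, 952 and 1485 CPM at P0, with 98.7, 82.5, 153 and 209 CPM at E16. Sftpa1, the other collectin of surfactant, had a log2 change of 3.35 ± 0.32 (SE), adjusted p = 0.000133. Sftpb was at 1688, 1680.1, 643 and 1164 CPM at P0, against 282, 253, 313 and 303 CPM at E16. Surfactant protein B, which is needed to spread the film, had a log2 change of 2.17 ± 0.28 (SE), adjusted p = 0.000517. S100g, a calcium-binding protein, was at 18.2 to 50.4 CPM at P0, 0.237 to 0.624 at E16, and Lyz2, the lysozyme shared with myeloid cells, at 704 to 1369 CPM at P0, 63.7 to 97.1 at E16. The 2 genes called lower were Etv5, a transcription factor downstream of FGF signalling that is present in tip progenitors and type 2 cells (156 to 251 CPM at P0, 395 to 498 at E16), and Egfl6, a secreted matrix protein (71.2 to 175 CPM at P0, 174 to 189 at E16), whose groups overlapped and whose adjusted p was 0.0381 with all libraries and up to 0.0961 without single ones.

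Of the type 1 list, 19 of 21 tested members were higher and 1 lower at P0, with a median log2 change of 1.76 (19 and 0 of 21 without replicate 3). P0 lungs had 886, 1135, 501 and 1049.8 CPM of Ager, against 186, 151, 224 and 268 CPM in E16 lungs. Ager encodes the receptor for advanced glycation end products, which is concentrated on type 1 cells. P0 replicate 3 was the lowest of its group and still above E16 (log2 change of 2.11 ± 0.27 (SE), adjusted p = 0.000512). The level of Hopx was 202, 249, 111 and 180.1 CPM in P0 lungs and 70.6, 60.2, 82.5 and 102 CPM in E16 lungs. Hopx, a homeodomain-only cofactor, had a log2 change of 1.24 ± 0.25 (SE), adjusted p = 0.0039. Rtkn2, a gene of type 1 cells, was at 120.1 to 182 CPM at P0, 12.9 to 19.03 at E16, and Pxdc1, a PX domain protein, at 26.1 to 54.3 CPM at P0, 3.89 to 4.86 at E16. The only member called lower was Igfbp2, an IGF-binding protein of terminally differentiated type 1 cells (8.47 to 28.9 CPM at P0, 31.4 to 53.7 at E16, log2 change of -1.12 ± 0.38 (SE), adjusted p = 0.0383). This call was lost without any 1 of P0 replicates 1 and 3 and E16 replicates 1, 2 and 3, where adjusted p ran from 0.0538 to 0.0986.

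The genes of the distal tip moved the other way. Of that list, 1 of 12 tested members was higher and 9 lower at P0, with a median log2 change of -1.002. For Sox9, P0 lungs gave 3.98, 5.34, 5.43 and 4.85 CPM and E16 lungs 26.0, 27.5, 23.5 and 17.4 CPM. Sox9, the transcription factor that marks tip progenitors and also cartilage, fell (log2 change of -2.27 ± 0.19 (SE), adjusted p = 7.27e-05), with no overlap. Foxp2 measured 67.7, 32.4, 21.5 and 29.2 CPM at P0, with 142, 144, 149.6 and 159 CPM at E16. Foxp2, a repressor of distal epithelium, fell as well (log2 change of -1.98 ± 0.31 (SE), adjusted p = 0.0013). Wnt7b, a ligand that distal epithelium sends to the mesenchyme, was at 9.34 to 15.3 CPM at P0, 23.5 to 35.4 at E16. The single member called higher was Spry2, an intracellular inhibitor of FGF receptor signalling (31.0 to 75.0 CPM at P0, 20.5 to 29.9 at E16, adjusted p = 0.019, and 0.0589 without E16 replicate 3).

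Transcription factors of lung epithelium were called at shares near those of all genes (23.1% higher and 20.1% lower), and 4 of 19 tested members were higher and 3 lower at P0, with a median log2 change of -0.17 (6 and 5 of 19 without replicate 3, 2 higher without any 1 of P0 replicate 2 and E16 replicates 2, 3 and 4). Nkx2-1, which specifies lung epithelium, was lower at P0 (log2 change of -0.46 ± 0.14 (SE), adjusted p = 0.0218), with adjusted p of 0.0505 to 0.0589 without any 1 of E16 replicates 1, 2 and 3. Foxa1, a pioneer factor, was at 16.1 to 34.9 CPM at P0, 44.2 to 62.2 at E16, and Grhl2, a regulator of epithelial junctions, at 37.3 to 42.9 CPM at P0, 59.8 to 72.5 at E16. Cebpd, a C/EBP factor induced by glucocorticoid, was at 7.09 to 74.9 CPM at P0, 5.02 to 6.41 at E16, and Tfcp2l1, a grainyhead-family factor, at 75.3 to 155 CPM at P0, 11.9 to 31.9 at E16.

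**Figure D4:**
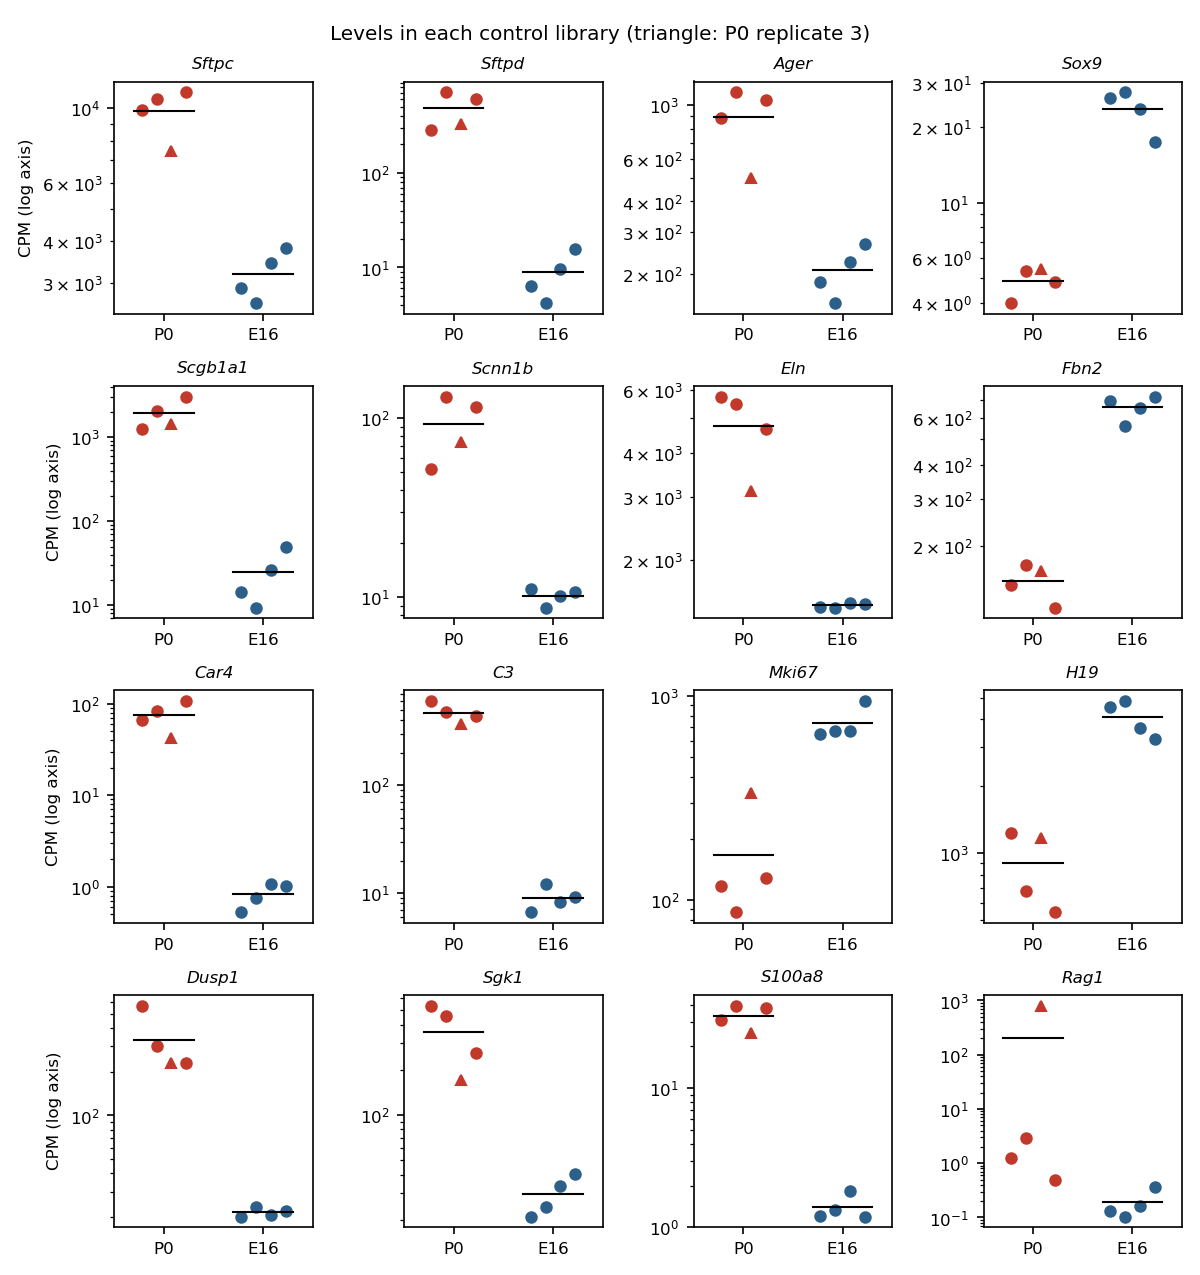
CPM in each control library on log axes for 16 genes, with P0 left of E16, a bar at the group mean and a triangle for P0 replicate 3. Sftpc, Sftpd, Ager, Scgb1a1, Scnn1b, Eln, Car4, C3, Dusp1, Sgk1 and S100a8 lie higher at P0, Sox9, Fbn2, Mki67 and H19 lie lower, and the P0 mean of Rag1 is set by replicate 3.

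In the conducting airways several secretory genes rose and most genes of motile cilia did not pass the test. In the secretory list 17 of 21 members passed the filter, 1 of them only through the P0 libraries, and 10 of 17 tested members were higher and 2 lower at P0, with a median log2 change of 2.31 (median 2.23 over members that passed in both groups, 10 and 1 of 17 without replicate 3). Scgb1a1 was at 1259, 2072, 1428 and 3048 CPM at P0, against 14.6, 9.31, 26.1 and 49.2 CPM at E16. Scgb1a1, the secretoglobin of club cells, separated the stages completely (log2 change of 6.30 ± 0.60 (SE), adjusted p = 0.000139). Cbr2, a carbonyl reductase abundant in lung, was at 444 to 995 CPM at P0, 27.2 to 68.9 at E16, and Scgb3a2, a secretoglobin that appears early in airway development, at 571 to 821 CPM at P0, 106 to 206 at E16. Aldh1a7, an aldehyde dehydrogenase, was called lower, at 81.0 to 110.5 CPM at P0, 181 to 235 at E16. The median of the secretory list was 1.97 without replicate 3. In the ciliated list 7 of 28 tested members were higher and 2 lower at P0, with a median log2 change of 0.28 (11 and 3 of 28 without replicate 3). P0 lungs had 22.0, 42.7, 18.1 and 29.0 CPM of Foxj1, against 31.0, 26.5, 23.3 and 21.9 CPM in E16 lungs. Foxj1, the master factor of motile cilia, did not pass the test (log2 change of 0.12 ± 0.26 (SE), adjusted p = 0.732), and its groups overlapped. Mcidas and Deup1, which start centriole amplification early in multiciliated cell formation, were lower, Mcidas at 0.409 to 1.11 CPM at P0, 2.56 to 3.87 at E16 and Deup1 at 4.58 to 7.34 CPM at P0, 25.9 to 31.0 at E16. Tmem212, a ciliated cell gene, was higher (6.30 to 7.89 CPM at P0, 0.582 to 0.896 at E16), as was Dnah5, an axonemal dynein heavy chain (21.4 to 34.7 CPM at P0, 5.96 to 14.6 at E16). Of neuroendocrine and neuronal genes, 16 of 18 members passed the filter, and 2 of 16 tested members were higher and 1 lower at P0, with a median log2 change of -0.18 (2 and 4 of 16 without replicate 3). Stmn2, a neuronal stathmin, was among the higher ones (25.6 to 68.1 CPM at P0, 8.96 to 13.05 at E16). The median of the neuroendocrine and neuronal list was -0.68 without replicate 3.

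Genes for the clearance of lung liquid were called higher or not at all, and in that list 22 of 23 members passed the filter, and 11 of 22 tested members were higher and 0 lower at P0, with a median log2 change of 0.73 (2 lower without P0 replicate 1). The epithelial sodium channel, through which liquid is absorbed at birth, has 3 subunits. The level of Scnn1a was 502, 406, 199 and 390.0 CPM in P0 lungs and 50.9, 38.8, 74.8 and 71.7 CPM in E16 lungs. For Scnn1b, P0 lungs gave 52.0, 132, 73.6 and 115 CPM and E16 lungs 11.1, 8.73, 10.2 and 10.7 CPM. Scnn1g measured 166, 251, 169 and 241 CPM at P0, with 25.7, 20.6, 27.4 and 26.8 CPM at E16. Each of the 3 subunits was higher in every P0 library than in any E16 library. The log2 changes were 2.66 ± 0.31 for Scnn1a, 3.20 ± 0.29 for Scnn1b and 3.04 ± 0.18 for Scnn1g, with adjusted p of 0.000317, 0.000104 and 2.46e-05. Aqp1, a water channel of capillaries, was at 799.9 to 1254 CPM at P0, 105 to 156 at E16. P0 replicate 1 was the lowest P0 library for Scnn1b.

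Genes of lipid synthesis and oxidation were called higher in part, and the count for cholesterol synthesis turned on 1 library. Of fatty acid and phospholipid synthesis genes 10 of 25 tested members were higher and 0 lower at P0, with a median log2 change of 0.55 (14 and 1 of 25 without replicate 3). Examples were Elovl1, a fatty acid elongase (108 to 192 CPM at P0, 48.4 to 55.9 at E16), and Pgs1, which makes phosphatidylglycerol phosphate (89.7 to 123 CPM at P0, 47.0 to 58.0 at E16). Of cholesterol synthesis genes 6 of 23 tested members were higher and 0 lower at P0, with a median log2 change of 0.62 (5 and 0 of 23 without replicate 3, 19 higher without P0 replicate 1). With all libraries the share called higher lay near the 23.1% of all genes, and 20.1% of all genes were lower. The called ones included Insig1, the sterol sensor (81.7 to 114 CPM at P0, 42.3 to 45.3 at E16). P0 replicate 1 had the lowest mean level of this list of all 8 libraries, with a mean log2(CPM + 0.5) of 4.81. Of fatty acid oxidation genes 24 of 25 members passed the filter, and 10 of 24 tested members were higher and 0 lower at P0, with a median log2 change of 0.49 (8 and 2 of 24 without replicate 3, 5 to 6 higher without any 1 of E16 replicates 1, 2 and 3), among them Pdk4, which holds back pyruvate oxidation (25.0 to 101 CPM at P0, 5.61 to 9.77 at E16). Glycolysis and hypoxia genes were divided, and 5 of 28 tested members were higher and 10 lower at P0, with a median log2 change of -0.32 (5 and 11 of 28 without replicate 3). Pgam1 was at 111, 102, 127 and 104 CPM at P0, against 259.9, 265, 257 and 220.4 CPM at E16. Phosphoglycerate mutase 1 fell (log2 change of -1.17 ± 0.11 (SE), adjusted p = 0.000152). Enolase 1 was at 218 to 304 CPM at P0, 541 to 598 at E16 and triosephosphate isomerase at 137 to 172 CPM at P0, 281 to 331 at E16. Adm, the vasodilator peptide adrenomedullin, was higher (2.59 to 15.7 CPM at P0, 0.869 to 1.85 at E16), as was hexokinase 1 (90.3 to 111 CPM at P0, 58.5 to 74.3 at E16).

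Antioxidant enzymes were also divided, and 13 of 32 tested members were higher and 5 lower at P0, with a median log2 change of 0.37 (15 and 7 of 32 without replicate 3, 3 lower without any 1 of E16 replicates 1 and 2). P0 lungs had 6.54, 24.6, 19.7 and 23.3 CPM of Sod3, against 0.685, 0.651, 0.531 and 0.908 CPM in E16 lungs. Sod3, the extracellular superoxide dismutase, had a log2 change of 4.73 ± 0.44 (SE), adjusted p = 0.000119. Srxn1, which restores oxidised peroxiredoxins, was at 18.2 to 29.7 CPM at P0, 5.31 to 6.81 at E16, and Gstm1, a glutathione transferase, at 94.9 to 169.9 CPM at P0, 40.6 to 43.5 at E16. Prdx4, a peroxiredoxin of the endoplasmic reticulum, was lower (34.8 to 47.6 CPM at P0, 72.0 to 92.3 at E16), as was Txnrd1, the cytosolic thioredoxin reductase (105 to 108 CPM at P0, 130.3 to 176 at E16).

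Genes of cell division fell almost throughout. In the mitosis list 0 of 40 tested members were higher and 40 lower at P0, with a median log2 change of -2.36. In the DNA replication list 0 of 43 tested members were higher and 39 lower at P0, with a median log2 change of -1.34 (0 and 42 of 43 without replicate 3). The level of Mki67 was 117, 86.9, 335 and 129 CPM in P0 lungs and 652, 675, 671 and 943 CPM in E16 lungs. Mki67, the proliferation antigen Ki-67, fell in every P0 library, least in replicate 3 (log2 change of -2.14 ± 0.40 (SE), adjusted p = 0.00268). For Top2a, P0 lungs gave 71.0, 66.3, 309 and 105 CPM and E16 lungs 574, 555, 599.7 and 685 CPM. Topoisomerase 2-alpha followed the same order among the P0 libraries (log2 change of -2.13 ± 0.47 (SE), adjusted p = 0.00585). Without replicate 3 the log2 change was -2.74 for Mki67 and -2.91 for Top2a. Prc1 measured 28.2, 20.2, 51.6 and 36.2 CPM at P0, with 179.6, 194, 176 and 182 CPM at E16. Prc1, which bundles microtubules at the midzone of the dividing cell, fell (log2 change of -2.42 ± 0.25 (SE), adjusted p = 0.000216). Anln, the actin scaffold of the cleavage furrow, was at 14.8 to 29.8 CPM at P0, 142 to 161 at E16, and Foxm1, the transcription factor of late cell cycle genes, at 22.0 to 42.6 CPM at P0, 94.6 to 146 at E16. Of replication genes, Rpa1, of the single-strand binding complex, was at 73.0 to 111 CPM at P0, 192 to 227 at E16, Pola1, the catalytic subunit of polymerase alpha, at 15.5 to 32.7 CPM at P0, 66.4 to 79.9 at E16, and Rrm1, of ribonucleotide reductase, at 70.0 to 151 CPM at P0, 260.0 to 301 at E16. Without P0 replicate 3 the median change was -2.86 for mitosis and -1.61 for DNA replication. The part of thymus RNA in the smaller change with it was not tested.

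Many late cell cycle genes carry the CHR (cell cycle genes homology region) element TTTGAA near their start, at which the DREAM and MuvB complexes act. The letters TTTGAA were searched on both strands, from 250 bases before to 50 after annotated starts in the RefSeq promoter table of GRCm38. They were found for 24 of the 34 mitosis genes with a window (70.6%), and for 20.2% of all 27025 genes in that table. The E2F site TTTGGCGC was found for 7 of 36 DNA replication genes (19.4%) and for 0.585% of all genes. These matches are letters in a window and were not tested as sites. The promoter of Prc1 (GRCm38 chr7:80294201-80294460, plus strand) and the Kif2c window with the match (chr4:117178763-117179022, minus strand) are shown. Kif2c was the gene of the mitosis list with the largest fall. The start in its window lies inside the gene, whose 5′ end on the minus strand is at 117182639. Both genes fell, and both windows hold the CHR letters, in capitals, on the shown strand or, for Kif2c, on the opposite strand. Each runs 5′ to 3′ from 250 bases before the start over the first transcribed bases.
Prc1: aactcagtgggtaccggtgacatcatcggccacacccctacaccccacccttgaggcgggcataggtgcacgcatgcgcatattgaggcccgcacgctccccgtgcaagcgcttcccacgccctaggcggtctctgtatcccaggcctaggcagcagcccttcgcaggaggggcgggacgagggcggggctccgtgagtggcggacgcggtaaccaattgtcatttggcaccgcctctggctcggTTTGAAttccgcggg
Kif2c: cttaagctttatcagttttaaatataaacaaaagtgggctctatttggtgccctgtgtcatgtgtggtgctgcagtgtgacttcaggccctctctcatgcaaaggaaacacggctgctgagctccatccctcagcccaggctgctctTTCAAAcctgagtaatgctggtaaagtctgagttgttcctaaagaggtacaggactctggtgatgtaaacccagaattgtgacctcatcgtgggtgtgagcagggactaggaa

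Among inhibitors of the cell cycle, 17 of 18 members passed the filter, and 7 of 17 tested members were higher and 2 lower at P0, with a median log2 change of 0.53 (9 and 2 of 17 without replicate 3). Cdkn1a was at 293, 128, 42.4 and 58.6 CPM at P0, against 9.67, 12.4, 13.7 and 9.13 CPM at E16. Cdkn1a, the p21 inhibitor of cyclin-dependent kinases, rose and was highest in P0 replicate 1 (log2 change of 3.54 ± 0.58 (SE), adjusted p = 0.00148), with a log2 change of 2.77 without that library. Cdkn2b, the p15 inhibitor, was at 17.7 to 41.1 CPM at P0, 3.66 to 6.61 at E16, and Klf2, a shear-responsive factor of endothelium, at 25.0 to 72.5 CPM at P0, 3.49 to 5.50 at E16. Cdkn2c, the p18 inhibitor, was lower (5.64 to 11.6 CPM at P0, 19.1 to 24.8 at E16). The machinery of ribosome production fell in part. Of ribosome biogenesis genes 0 of 30 tested members were higher and 15 lower at P0, with a median log2 change of -0.55 (0 and 20 of 30 without replicate 3). P0 lungs had 399, 319.7, 423 and 326 CPM of Npm1, against 897, 1085, 873 and 783 CPM in E16 lungs. Nucleophosmin fell (log2 change of -1.31 ± 0.15 (SE), adjusted p = 0.000277), and Dkc1, the pseudouridine synthase of ribosomal RNA, was at 21.0 to 43.5 CPM at P0, 66.3 to 92.4 at E16. Of cytosolic ribosomal proteins 0 of 36 tested members were higher and 27 lower at P0, with a median log2 change of -0.43 (0 and 25 of 36 without replicate 3, 17 lower without any 1 of P0 replicate 4 and E16 replicate 3). The members with the smallest p changed more than the median of the list. Rps18 had a log2 change of -0.85 (215 to 242 CPM at P0, 408 to 427 at E16) and Rpl3 one of -0.74 (579.9 to 602 CPM at P0, 950.5 to 1033 at E16). Processed copies of ribosomal protein genes share reads with them, which makes single values uncertain.

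Several fetal growth genes fell. Of the list of let-7 targets and oncofetal genes 14 of 15 members passed the filter, and 2 of 14 tested members were higher and 6 lower at P0, with a median log2 change of -0.47 (2 and 8 of 14 without replicate 3). The level of Igf2bp1 was 22.6, 19.01, 16.0 and 21.6 CPM in P0 lungs and 80.6, 69.1, 76.1 and 56.4 CPM in E16 lungs. Igf2bp1, an RNA-binding protein of fetal tissues, fell (log2 change of -1.83 ± 0.16 (SE), adjusted p = 9.11e-05). For Hmga2, P0 lungs gave 22.5, 14.3, 13.03 and 14.1 CPM and E16 lungs 44.0, 45.2, 42.9 and 34.3 CPM. Hmga2, a chromatin protein of growing tissue, fell as well (log2 change of -1.38 ± 0.19 (SE), adjusted p = 0.000737). Lin28b measured 0.277, 0.287, 5.43 and 0.356 CPM at P0, with 1.03, 1.23, 1.10 and 1.02 CPM at E16. Lin28b, which blocks let-7 maturation, showed 1 P0 library far above the others, replicate 3. It did not pass the test with all libraries (log2 change of 0.55 ± 0.92 (SE), adjusted p = 0.653) and was lower without that library (log2 change -1.83, adjusted p = 0.00138). The median of the let-7 and oncofetal list was -0.77 without replicate 3. In the imprinted growth network 3 of 21 tested members were higher and 7 lower at P0, with a median log2 change of -0.35 (4 and 6 of 21 without replicate 3, 11 lower without P0 replicate 1). H19 was at 1236, 676, 1173 and 542 CPM at P0, against 4545, 4824, 3659 and 3255 CPM at E16. H19, an imprinted noncoding RNA, fell (log2 change of -2.17 ± 0.28 (SE), adjusted p = 0.000536). P0 lungs had 509, 295, 531 and 332 CPM of Igf2, against 1400.1, 1640.1, 1215 and 965 CPM in E16 lungs. Igf2, the fetal growth factor next to H19, fell too (log2 change of -1.65 ± 0.24 (SE), adjusted p = 0.000847). Grb10, an adaptor that restrains growth, was at 450.4 to 559 CPM at P0, 1509 to 1545 at E16, and Peg10, a retrotransposon-derived gene, at 13.1 to 20.1 CPM at P0, 37.7 to 63.0 at E16. Peg3, a paternally expressed zinc finger protein, was higher (577 to 986 CPM at P0, 336 to 522 at E16), and Dlk1, a fetal Notch ligand relative, did not pass the test (107 to 685 CPM at P0, 236 to 316 at E16, adjusted p = 0.769). Of IGF signalling and binding genes 14 of 15 members passed the filter, and 6 of 14 tested members were higher and 3 lower at P0, with a median log2 change of 0.43 (8 and 3 of 14 without replicate 3), with Igf1 lower (56.7 to 59.4 CPM at P0, 128 to 182 at E16) and the binding proteins Igfbp3 (44.3 to 185 CPM at P0, 8.79 to 19.5 at E16) and Igfbp7 (103 to 201 CPM at P0, 30.8 to 37.1 at E16) higher.

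HOX genes, which set position along the body axis, were lower in part. Of these 17 of 26 members passed the filter, 1 of them only through the E16 libraries, and 1 of 17 tested members was higher and 8 lower at P0, with a median log2 change of -0.69 (median -0.66 over members that passed in both groups, 0 and 7 of 18 without replicate 3). Hoxa5, needed for lung mesenchyme patterning, was at 22.2 to 31.5 CPM at P0, 36.05 to 43.1 at E16. Hoxb9 passed the filter only through the E16 libraries and so had to be lower, at 0.0359 to 0.138 CPM at P0, 0.377 to 0.632 at E16. Of the SIN3 and histone deacetylase complex, to which the floxed gene belongs, 1 of 20 tested members was higher and 10 lower at P0, with a median log2 change of -0.32. The level of Sin3a was 106, 85.6, 103 and 89.5 CPM in P0 lungs and 133, 125, 140.0 and 129 CPM in E16 lungs. Sin3a itself was lower at P0 (log2 change of -0.45 ± 0.11 (SE), adjusted p = 0.00854), and a count over the whole gene does not show whether the floxed allele was recombined. Hdac2, a catalytic subunit, was at 90.3 to 126 CPM at P0, 162 to 194 at E16, and Rbbp7, a histone-binding subunit, at 168 to 192 CPM at P0, 304 to 361 at E16.

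Elastic fibre genes rose in the larger part, while the chains of the most abundant fibrillar collagens did not pass the test. Of elastic fibre genes 12 of 23 tested members were higher and 3 lower at P0, with a median log2 change of 0.75 (14 and 3 of 23 without replicate 3). For Eln, P0 lungs gave 5749, 5467, 3124 and 4676 CPM and E16 lungs 1475, 1469.8, 1520.1 and 1505 CPM. Elastin rose, and replicate 3 was again the lowest P0 library (log2 change of 1.67 ± 0.19 (SE), adjusted p = 0.000271). Fbn2 measured 143, 170.2, 162 and 118 CPM at P0, with 691, 561, 655 and 719 CPM at E16. Fibrillin 2, the fibrillin that prevails in fetal tissue, fell (log2 change of -2.15 ± 0.15 (SE), adjusted p = 3.79e-05). Fbln5 was at 417, 397, 321 and 472 CPM at P0, against 134, 154, 167 and 147 CPM at E16. Fibulin 5, which guides elastin onto microfibrils, rose (log2 change of 1.42 ± 0.14 (SE), adjusted p = 0.000152), and the crosslinking enzyme Loxl1 was at 42.5 to 112 CPM at P0, 14.2 to 21.7 at E16. Of collagen chains 6 of 26 tested members were higher and 4 lower at P0, with a median log2 change of 0.13 (7 and 4 of 26 without replicate 3). P0 lungs had 619.5, 999.8, 433 and 662 CPM of Col1a1, against 805, 883, 531 and 341 CPM in E16 lungs. Col1a1, the main chain of type I collagen, did not pass the test (log2 change of 0.08 ± 0.33 (SE), adjusted p = 0.854), nor did Col3a1 (1592 to 2223 CPM at P0, 1824 to 2529.8 at E16, adjusted p = 0.541). Col4a2, a chain of the capillary and alveolar basement membrane, was higher (1206 to 3091 CPM at P0, 683 to 974 at E16). Col15a1, of the outer basement membrane zone, was lower (37.3 to 76.6 CPM at P0, 149.9 to 204 at E16). Of matrix proteases and their inhibitors 22 of 24 members passed the filter, 1 of them only through the P0 libraries, and 12 of 22 tested members were higher and 1 lower at P0, with a median log2 change of 0.89 (median 0.86 over members that passed in both groups, 13 and 1 of 22 without replicate 3), among them Mmp9, gelatinase B of myeloid cells (7.64 to 13.5 CPM at P0, 0.255 to 0.959 at E16). Of laminins and basement membrane proteins 4 of 17 tested members were higher and 2 lower at P0, with a median log2 change of 0.26 (7 and 1 of 17 without replicate 3, 2 higher without any 1 of E16 replicates 1 and 2, 0 lower without any 1 of P0 replicate 2 and E16 replicates 1, 3 and 4), with Npnt, the integrin ligand nephronectin, at 887 to 1296 CPM at P0, 526 to 664 at E16.

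Among mesenchymal cell types, most of the tested adventitial fibroblast, pericyte and mesothelial genes rose. Of the alveolar fibroblast list 24 of 25 members passed the filter, and 13 of 24 tested members were higher and 3 lower at P0, with a median log2 change of 0.67 (15 and 2 of 24 without replicate 3, 1 lower without any 1 of E16 replicates 1, 2, 3 and 4). The level of Pdgfra was 183, 102, 101 and 89.8 CPM in P0 lungs and 220.0, 208, 262 and 328 CPM in E16 lungs. Pdgfra, the PDGF receptor of alveolar fibroblasts and myofibroblast precursors, fell (log2 change of -1.10 ± 0.25 (SE), adjusted p = 0.00647). For Tcf21, P0 lungs gave 116, 155, 104 and 143 CPM and E16 lungs 93.7, 78.8, 114 and 117 CPM. Tcf21, a factor of the lipid-bearing fibroblast lineage, did not pass the test (log2 change of 0.36 ± 0.17 (SE), adjusted p = 0.114). Inmt, described above, had the smallest p among the 13 higher members (49.0 to 78.1 CPM at P0, 0.308 to 1.39 at E16). Of the adventitial list all 21 members passed the filter, 1 of them only through the P0 libraries, and 13 of 21 tested members were higher and 1 lower at P0, with a median log2 change of 1.12 (median 0.96 over members that passed in both groups, 13 and 3 of 21 without replicate 3, 4 lower without P0 replicate 1). C3 measured 604, 475, 368 and 435 CPM at P0, with 6.61, 12.1, 8.24 and 9.27 CPM at E16. Complement C3, which adventitial fibroblasts and epithelium make, rose with no overlap (log2 change of 5.70 ± 0.25 (SE), adjusted p = 7.8e-06). C7, a later complement component, was at 26.3 to 57.9 CPM at P0, 1.45 to 2.67 at E16. Of smooth muscle and myofibroblast genes 7 of 24 tested members were higher and 3 lower at P0, with a median log2 change of 0.25 (7 and 4 of 24 without replicate 3, 11 higher without P0 replicate 1). Acta2, smooth muscle actin, did not pass the test (231 to 494 CPM at P0, 319.5 to 455 at E16, adjusted p = 0.807), Des, the intermediate filament desmin, was higher (67.4 to 168 CPM at P0, 31.4 to 47.2 at E16), and Lgr6, an R-spondin receptor of airway smooth muscle, was lower (5.36 to 17.4 CPM at P0, 38.3 to 42.9 at E16). Of pericyte genes 12 of 17 tested members were higher and 0 lower at P0, with a median log2 change of 0.71 (13 and 0 of 17 without replicate 3), with Higd1b at 31.2 to 43.1 CPM at P0, 7.43 to 14.7 at E16 and the cation channel Trpc6 at 22.2 to 33.8 CPM at P0, 7.94 to 10.5 at E16. Of mesothelial genes 11 of 15 tested members were higher and 0 lower at P0, with a median log2 change of 1.14, with mesothelin (Msln) at 413 to 811 CPM at P0, 46.9 to 123 at E16. Of mesenchymal transcription factors 22 of 24 members passed the filter, and 4 of 22 tested members were higher and 3 lower at P0, with a median log2 change of -0.17 (5 and 3 of 22 without replicate 3, 6 lower without P0 replicate 1), Foxf1, the factor of lung mesenchyme and capillaries, being higher (138 to 270.2 CPM at P0, 88.8 to 103 at E16).

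Most endothelial genes rose, and none of the pan-endothelial or capillary lists was called lower. Of pan-endothelial genes 17 of 23 tested members were higher and 0 lower at P0, with a median log2 change of 0.89 (21 and 0 of 23 without replicate 3). Pecam1 was at 1008, 818, 615 and 841 CPM at P0, against 403, 393, 439 and 465 CPM at E16. Pecam1, the junctional protein CD31, rose (log2 change of 0.95 ± 0.15 (SE), adjusted p = 0.00147). Ace, the angiotensin-converting enzyme that lung capillaries are rich in, was at 470.2 to 1162 CPM at P0, 69.7 to 141 at E16. Of capillary genes 23 of 24 members passed the filter, and 17 of 23 tested members were higher and 0 lower at P0, with a median log2 change of 1.07 (19 and 0 of 23 without replicate 3). P0 lungs had 65.5, 82.5, 42.6 and 107 CPM of Car4, against 0.527, 0.753, 1.06 and 1.02 CPM in E16 lungs. Car4 marks the large capillary cells, also called aerocytes, that face the airspace, and had the largest log2 change of the list (log2 change of 6.47 ± 0.37 (SE), adjusted p = 1.83e-05). Cyp4b1, a cytochrome P450 of lung, was at 74.7 to 98.9 CPM at P0, 11.1 to 12.7 at E16. The level of Aplnr was 63.2, 185, 129 and 206 CPM in P0 lungs and 298, 331, 241 and 206 CPM in E16 lungs. Aplnr, the apelin receptor of the general capillary cell, did not pass the test with all libraries (log2 change of -0.88 ± 0.33 (SE), adjusted p = 0.0526). It was called lower without P0 replicate 1 (log2 change -0.63, adjusted p = 0.0402) or without P0 replicate 4 (-1.10, 0.0361). Of VEGF, angiopoietin and Notch genes 14 of 20 tested members were higher and 0 lower at P0, with a median log2 change of 0.90 (13 and 0 of 20 without replicate 3), with Vegfa, the growth factor that type 1 cells send to capillaries, at 415 to 903 CPM at P0, 212 to 277 at E16 and Pdgfb, the endothelial ligand that recruits pericytes, at 51.7 to 101 CPM at P0, 20.9 to 23.7 at E16. Of lymphatic genes 6 of 13 tested members were higher and 2 lower at P0, with a median log2 change of 0.65 (7 and 2 of 13 without replicate 3). Lyve1, a hyaluronan receptor of lymphatics, was higher (435 to 745 CPM at P0, 125 to 139 at E16) and Stab2, a scavenger receptor, was lower (2.05 to 14.6 CPM at P0, 24.9 to 41.4 at E16).

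Genes of branching signals were called in both directions, and the shares of the FGF, WNT and retinoic acid lists lay near those of all genes, 23.1% higher and 20.1% lower. Of the FGF pathway 7 of 22 tested members were higher and 5 lower at P0, with a median log2 change of 0.14 (8 and 4 of 22 without replicate 3). For Fgf9, P0 lungs gave 0.692, 1.33, 2.54 and 2.01 CPM and E16 lungs 7.22, 8.12, 7.27 and 6.24 CPM. The ligand Fgf9, made by mesothelium and epithelium, fell (log2 change of -2.13 ± 0.36 (SE), adjusted p = 0.0017), the target Etv4 was at 4.94 to 7.50 CPM at P0, 8.03 to 13.7 at E16, and the inhibitor Spry1 was higher (67.7 to 139 CPM at P0, 24.3 to 33.5 at E16). Of hedgehog genes 14 of 15 members passed the filter, and 1 of 14 tested members was higher and 6 lower at P0, with a median log2 change of -0.58 (1 and 8 of 14 without replicate 3). Ptch1 measured 145, 156, 131 and 169.9 CPM at P0, with 282, 246, 297 and 326 CPM at E16. Ptch1, the receptor and a target of the pathway, fell (log2 change of -0.94 ± 0.13 (SE), adjusted p = 0.000623), and Gli3, a transcription factor of the pathway, was at 28.4 to 46.6 CPM at P0, 66.2 to 74.4 at E16. Dhh, the ligand desert hedgehog, was higher (2.49 to 6.74 CPM at P0, 0.964 to 1.47 at E16). Of WNT genes 30 of 32 members passed the filter, and 9 of 30 tested members were higher and 4 lower at P0, with a median log2 change of 0.12, with the ligand Wnt4 higher (8.34 to 13.5 CPM at P0, 2.04 to 3.06 at E16) and Rnf43, a ubiquitin ligase that removes WNT receptors, lower (9.27 to 17.9 CPM at P0, 35.99 to 45.5 at E16). Of BMP and TGF-beta genes 13 of 30 tested members were higher and 3 lower at P0, with a median log2 change of 0.57. Bmp6, an endothelial ligand, was higher (12.3 to 17.0 CPM at P0, 1.74 to 3.55 at E16), and Bmp4, a ligand of the distal tip, was lower (24.4 to 38.1 CPM at P0, 43.5 to 64.3 at E16). Of retinoic acid genes 17 of 19 members passed the filter, and 5 of 17 tested members were higher and 2 lower at P0, with a median log2 change of 0.34 (6 and 2 of 17 without replicate 3), with the synthetic enzyme Aldh1a3 higher (3.11 to 9.33 CPM at P0, 0.890 to 1.43 at E16) and the receptor Rarb lower (4.84 to 9.90 CPM at P0, 10.9 to 15.8 at E16). The median of the retinoic acid list was 0.05 without replicate 3.

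Genes that respond to hormones and to acute stimuli were higher at P0, and in them P0 replicate 1 stood above the other P0 libraries. The mean log2(CPM + 0.5) of the immediate early list was 6.77, 5.54, 4.76 and 4.78 in P0 lungs, against 3.15, 3.11, 2.98 and 2.95 in E16 lungs, and that of the glucocorticoid list was 6.95, 5.89, 5.04 and 5.25 in P0 lungs, against 3.97, 3.97, 4.27 and 4.35 in E16 lungs. No P0 library overlapped the E16 libraries in either mean. Dusp1 lies on both lists, so these means are not independent. Of the glucocorticoid receptor and its targets 22 of 23 members passed the filter, and 15 of 22 tested members were higher and 0 lower at P0, with a median log2 change of 2.25 (17 and 0 of 22 without replicate 3). Sgk1 was at 537, 459, 171 and 258 CPM at P0, against 20.9, 24.2, 33.8 and 40.1 CPM at E16. Sgk1, the kinase that keeps the epithelial sodium channel at the membrane, rose (log2 change of 3.58 ± 0.39 (SE), adjusted p = 0.000247). P0 lungs had 171, 50.1, 133 and 38.5 CPM of Fkbp5, against 77.2, 72.2, 90.2 and 86.6 CPM in E16 lungs. Fkbp5, a chaperone and a widely used target of the receptor, did not pass the test (log2 change of 0.27 ± 0.42 (SE), adjusted p = 0.632). The level of Per1 was 607, 428, 57.9 and 162 CPM in P0 lungs and 127, 107, 110.1 and 90.2 CPM in E16 lungs. Per1, a clock gene and a target of the receptor, was not called with all libraries (adjusted p = 0.0567) and was higher without replicate 3 (log2 change 1.86, adjusted p = 0.00302). Of immediate early genes 24 of 28 tested members were higher and 0 lower at P0, with a median log2 change of 2.98 (25 and 0 of 28 without replicate 3). For Dusp1, P0 lungs gave 569, 300.2, 230.1 and 229.6 CPM and E16 lungs 20.1, 23.5, 20.7 and 22.1 CPM. Dusp1, a phosphatase of MAP kinases, rose in all P0 libraries, most in replicate 1 (log2 change of 3.94 ± 0.31 (SE), adjusted p = 5.43e-05). Ctgf, a matricellular target of YAP and TGF-beta, was at 282 to 532 CPM at P0, 26.6 to 33.4 at E16, and Cyr61, its relative, at 209 to 641 CPM at P0, 20.4 to 28.6 at E16. Without P0 replicate 1 the log2 change was 3.32 for Sgk1 and 3.55 for Dusp1, and the immediate early list had 23 members called higher and the glucocorticoid list 15. Of clock genes 10 of 20 tested members were higher and 2 lower at P0, with a median log2 change of 0.97 (12 and 1 of 20 without replicate 3), among them the repressors Nr1d1 (6.68 to 30.0 CPM at P0, 2.13 to 3.73 at E16) and Bhlhe41 (2.98 to 4.12 CPM at P0, 0.284 to 0.685 at E16).

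The glucocorticoid receptor binds a palindrome, searched here on both strands as GNACA, 3 free bases and TGTNC, which was found in the promoter windows of 4 of 20 genes of that list (20%), namely Fam107a, Map3k6, Mt1 and Sgk1, and of 0.537% of all genes. The cyclic AMP response element TGACGTCA was found for 3 of 22 immediate early genes (13.6%, against 2.03% of all genes), and the CArG box of serum response factor for 2 of 22 (9.09%, against 1.81%). The Sgk1 window with the match (GRCm38 chr10:21993640-21993899, plus strand) is shown because Sgk1 rose and lies on both the fluid transport and the glucocorticoid list, with the palindrome in capitals.
Sgk1: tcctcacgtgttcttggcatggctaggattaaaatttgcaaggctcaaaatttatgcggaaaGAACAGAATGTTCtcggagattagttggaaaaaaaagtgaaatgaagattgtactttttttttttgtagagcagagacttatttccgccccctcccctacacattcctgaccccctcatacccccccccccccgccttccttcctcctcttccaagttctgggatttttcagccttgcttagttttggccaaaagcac

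Most prostaglandin genes were higher. Of these 23 of 24 members passed the filter, 1 of them only through the P0 libraries, and 15 of 23 tested members were higher and 3 lower at P0, with a median log2 change of 0.98 (median 0.91 over members that passed in both groups, 14 and 3 of 23 without replicate 3, 1 lower without any 1 of P0 replicate 4 and E16 replicates 1 and 2). Ptgs2 measured 18.5, 8.57, 10.4 and 13.98 CPM at P0, with 0.184, 0.479, 0.531 and 0.822 CPM at E16. Ptgs2, the inducible cyclooxygenase, rose (log2 change of 4.67 ± 0.44 (SE), adjusted p = 0.000132). Hpgd was at 17.3, 86.7, 68.4 and 133 CPM at P0, against 10.8, 13.1, 13.4 and 15.3 CPM at E16. Hpgd, which inactivates prostaglandins and is abundant in lung, rose as well and was lowest in P0 replicate 1 (log2 change of 2.54 ± 0.49 (SE), adjusted p = 0.0034). Slco2a1, the prostaglandin uptake transporter, was at 256 to 523 CPM at P0, 70.2 to 89.8 at E16. Ptges3, the cytosolic prostaglandin E synthase and cochaperone, was lower (109 to 137 CPM at P0, 166 to 228 at E16).

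Genes of myeloid cells and of the interferon response rose. Of neutrophil genes 19 of 23 members passed the filter, 3 of them only through the P0 libraries, and 19 of 19 tested members were higher and 0 lower at P0, with a median log2 change of 4.41 (median 4.24 over members that passed in both groups). P0 lungs had 31.0, 39.4, 25.1 and 38.0 CPM of S100a8, against 1.21, 1.34, 1.83 and 1.19 CPM in E16 lungs. S100a8, a subunit of the calcium-binding protein calprotectin, separated the stages (log2 change of 4.59 ± 0.23 (SE), adjusted p = 1.01e-05), and so did its partner S100a9 (47.6 to 87.0 CPM at P0, 2.84 to 3.99 at E16). Of macrophage and monocyte genes 27 of 28 members passed the filter, 1 of them only through the P0 libraries, and 23 of 27 tested members were higher and 0 lower at P0, with a median log2 change of 1.20 (median 1.16 over members that passed in both groups, 24 and 0 of 28 without replicate 3). The level of Marco was 2.63, 12.9, 5.21 and 6.60 CPM in P0 lungs and 0.0527, 0.0342, 0.0664 and 0.0851 CPM in E16 lungs. Marco, a scavenger receptor of alveolar macrophages, passed the filter only through the P0 libraries, so its change is a description. Itgax, the integrin CD11c, was at 4.50 to 7.83 CPM at P0, 0.274 to 0.681 at E16. Of MHC class II and dendritic cell genes 14 of 18 members passed the filter, 1 of them only through the P0 libraries, and 8 of 14 tested members were higher and 0 lower at P0, with a median log2 change of 1.28 (median 1.24 over members that passed in both groups, 8 and 0 of 13 without replicate 3). H2-Aa, a class II chain, was at 4.79 to 26.6 CPM at P0, 0.856 to 1.19 at E16. Its highest library was P0 replicate 3, the one with thymus RNA, with 4.79 to 8.18 CPM in the other P0 libraries. The summed list was also highest there, at 364 CPM against 183 to 221 in the other P0 libraries. Of lymphocyte genes 14 of 25 members passed the filter, 5 of them only through the P0 libraries, and 12 of 14 tested members were higher and 0 lower at P0, with a median log2 change of 2.89 (median 2.20 over members that passed in both groups, median 2.07 without replicate 3). Rora, a nuclear receptor present in innate lymphoid cells, was at 28.5 to 92.7 CPM at P0, 8.70 to 13.6 at E16. Its log2 change was 2.36 without P0 replicate 3. Its highest P0 library was replicate 1, with 28.5 to 36.9 CPM in the others. The 25 lymphocyte genes, Rora among them, summed to 118, 67.4, 225 and 56.5 CPM at P0. At E16 they summed to 20.3, 18.4, 20.5 and 22.5 CPM. Which cells the Rora reads came from was not tested. Of interferon response genes 30 of 32 members passed the filter, 2 of them only through the P0 libraries, and 28 of 30 tested members were higher and 0 lower at P0, with a median log2 change of 1.84 (median 1.73 over members that passed in both groups). For Ifit3, P0 lungs gave 4.88, 4.88, 4.88 and 5.11 CPM and E16 lungs 0.501, 0.548, 0.432 and 0.822 CPM. Ifit3, an antiviral protein with tetratricopeptide repeats, rose (log2 change of 3.09 ± 0.26 (SE), adjusted p = 7.33e-05). Oasl2, an oligoadenylate synthetase-like protein, was at 16.4 to 28.0 CPM at P0, 3.06 to 5.59 at E16, and Mx1, a dynamin-like antiviral GTPase, at 1.003 to 2.08 CPM at P0, 0.158 to 0.233 at E16, the last of which passed the filter only through the P0 libraries.

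The core of the interferon-stimulated response element, searched on both strands as GAAA, 2 free bases and GAAA, was found in the promoter windows of 13 of 25 interferon response genes (52%) and of 3.99% of all genes. The Ifit3 promoter (GRCm38 chr19:34583279-34583538, plus strand) is shown because this gene had the smallest p of the list and holds 2 matches, in capitals, both of them on the opposite strand.
Ifit3: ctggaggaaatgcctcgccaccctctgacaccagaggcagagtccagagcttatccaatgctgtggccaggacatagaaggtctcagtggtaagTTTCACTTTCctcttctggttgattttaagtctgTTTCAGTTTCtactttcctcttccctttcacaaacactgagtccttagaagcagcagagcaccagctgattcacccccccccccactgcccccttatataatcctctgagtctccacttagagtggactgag

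Red cell genes were called less often than those of white cells, a difference that was not tested. Of adult globins and erythroid genes 20 of 23 members passed the filter, and 9 of 20 tested members were higher and 0 lower at P0, with a median log2 change of 0.49 (7 and 1 of 21 without replicate 3). Hbb-bs measured 5602, 16168, 9396 and 11321 CPM at P0, with 4777, 3559.6, 5235 and 4209.8 CPM at E16. Hbb-bs, an adult beta globin, rose (log2 change of 1.26 ± 0.29 (SE), adjusted p = 0.00733). Its near-identical neighbour Hbb-bt did not pass the test (535 to 1521 CPM at P0, 304 to 869 at E16, adjusted p = 0.242), and reads of these copies can be split between them. Hbb-y was at 0.934, 1.90, 4.58 and 3.04 CPM at P0, against 6.30, 4.73, 5.98 and 4.23 CPM at E16. Hbb-y, the embryonic epsilon-type globin, did not pass the test with all libraries (log2 change of -1.02 ± 0.42 (SE), adjusted p = 0.0776) and was called lower without P0 replicate 3 (log2 change -1.44, adjusted p = 0.0127). Hba-x, the embryonic zeta globin, was at 0.796 to 1.97 CPM at P0, 1.16 to 2.06 at E16 (adjusted p = 0.706).

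**Figure D5:**
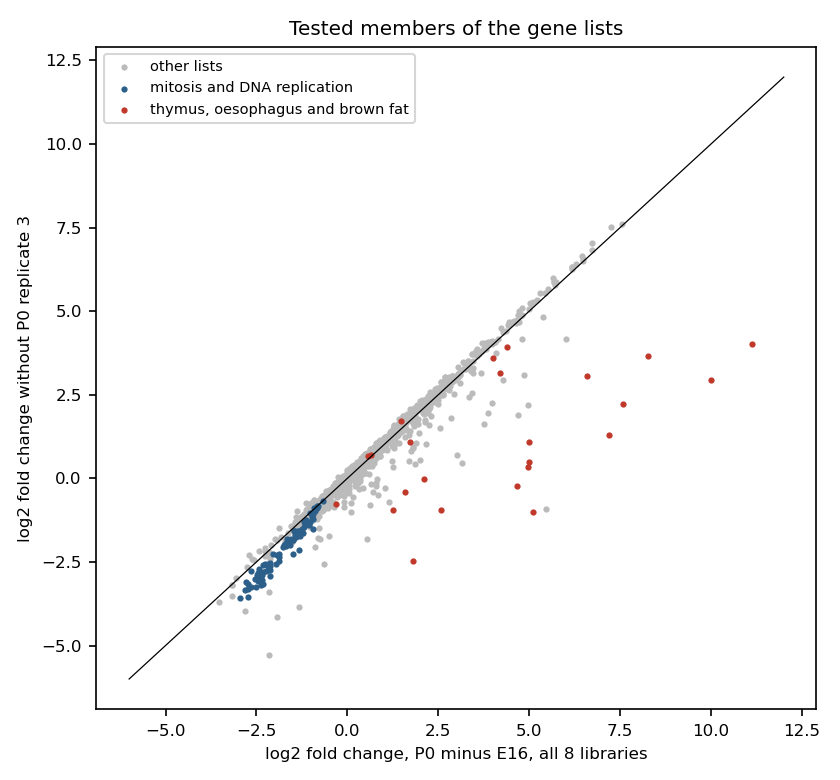
Log2 fold change of P0 over E16 for the tested members of all gene lists, with all 8 libraries (horizontal axis) and without P0 replicate 3 (vertical axis). Most thymus, oesophagus and brown fat genes fall below the line of equality, and mitosis and DNA replication genes lie slightly below it.

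The same stage change was measured in CKO lungs, which share no library with the controls but carry the same identifier prefixes at each stage, also in P0 control replicate 3 and P0 CKO replicate 1, the 2 libraries with the most thymus RNA. CKO lungs are titled Tbx4rtta; tetocre; Sin3a F/F. At P0 3067 genes (18.1%) were higher and 2875 (17%) lower than at E16 in CKO lungs, of 16914 tested. Of 16666 genes tested in both genotypes, 5178 were called in the same direction in both, which is 88.2% of the calls in CKO lungs and 71.3% of those in controls, and none was called in opposite directions. These counts include the 2 libraries with the most thymus RNA, and the agreement without them is not given here. The shared calls include the T cell genes Trbc2 (log2 change 8.83 in controls, 8.96 in CKO lungs) and Ccr9 (7.24 and 6.26). A difference between the stage changes was tested as CKO minus control over 16 libraries. It was called for 0 of 18041 genes by edgeR and for 17 by DESeq2, at an adjusted p under 0.05. By edgeR 352 genes had an unadjusted p under 0.05. With the identifier prefix as a block, an alternative chosen after the data were seen, edgeR called 0 genes, and 702 had an unadjusted p under 0.05. Both numbers lie below the share of 0.05 of all genes that chance alone would give. A missed threshold does not show that the changes were alike. The smallest p among positive differences was that of Acta2, whose log2 change was 1.56 in CKO lungs and 0.08 in controls (difference 1.53, adjusted p = 0.615). Lyve1 was among the negative ones, with 1.03 in CKO lungs and 2.07 in controls (difference -0.99, adjusted p = 1).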

How the data were processed

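RNA-seq of whole mouse lungs was analysed from 1 table of 51912 genes. Its values are expected counts as deposited by the authors, already whole numbers. Per the submitters' processing notes, STAR 2.5.3a, RSEM 1.3.0, edgeR and the genome build mm10 were used. RSEM shares reads between similar genes by estimate. Neither the annotation nor the strand setting is given in the sources used here. Identifiers were looked up in GENCODE vM21, and 51719 were found.

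The 4 P0 and 4 E16 control libraries, grouped by title, were compared with edgeR 4.0.16 in R 4.3.3: filterByExpr (minimum count 10), trimmed mean of M values scaling, robust quasi-likelihood test, Benjamini-Hochberg adjustment over all tested genes. The steps were tested on simulated data, with changes of 1.5, 2 and 4-fold set in 67, 67 and 66 genes above the median level. In the main comparison 7.46%, 68.7% and 98.5% of these were recovered, with 5 false calls among 16815 genes. Far fewer genes were changed than the 7400 called in the data, which makes the adjusted threshold stricter in the simulation. No library with thymus RNA was simulated. These shares are therefore not the power of the main comparison. In the interaction 2.99%, 20.9% and 87.9% were recovered, with 2 false calls among 17720 genes. CKO lungs were tested alone, and the interaction on 16 libraries. P-values measure the spread between these lungs; whether they come from separate litters is not given in the labels. Library totals bound the counting error only.

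Alternatives were DESeq2 1.42.0, limma 3.58.1 (voom), other scalings and filters, a 2-fold minimum (glmTreat), a replicate block, a covariate for Xist, removal of erythroid genes, and each library left out.

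Named genes were, at a mean log2 CPM of at least 3, the 10 strongest in each direction with groups that do not overlap (predicted loci, sex-linked genes and genes of the other-tissue lists passed over), and of each list up to 3 members with the smallest p per direction, plus defining members stated by name. Gene lists held 1373 genes, of which 1371 were in the table and 1246 were tested. The members and lists were chosen with earlier results of these data known. Promoter sequences are from RefSeq (GRCm38). A few genes that the rule names are not reported here.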

Additional observations from a re-analysis of the deposited data

Results flagged for a closer look

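Of 352 groups of 4 values checked, 29 gene values stood apart from the other 3 of their group by Dixon's criterion, as did the mean level of 2 lists. Chance gives about 1 in 20 groups. By library they number 7 in P0 replicate 1, 0 in P0 replicate 2, 11 in P0 replicate 3 and 3 in P0 replicate 4, and 1, 2, 2 and 5 in E16 replicates 1 to 4.

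In P0 replicate 3, the library with thymus RNA, Cd8a was at 367 CPM (others 0.421 to 1.11) and H2-Aa was at 26.6 CPM (others 4.79 to 8.18). Lin28b was at 5.43 CPM (others 0.277 to 0.356) and Mki67 was at 335 CPM (others 86.9 to 129). Nkx2-1 was at 127 CPM (others 179 to 184) and Rag1 was at 806 CPM (others 0.485 to 2.87). Sftpa1 was at 952 CPM (others 1485 to 1576) and Top2a was at 309 CPM (others 66.3 to 105). Trbc2 was at 251 CPM (others 0.582 to 1.79). Its mean log2(CPM + 0.5) over the oesophagus and squamous epithelium list was 3.83, against 0.05 to 0.27 in the other P0 libraries. Its mean log2(CPM + 0.5) over the thymocyte and thymus list was 6.32, against 0.73 to 1.06 in the other P0 libraries.

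In P0 replicate 1, Col15a1 was at 76.6 CPM (others 37.3 to 40.1) and Des was at 67.4 CPM (others 151 to 168). Fosb was at 143 CPM (others 2.20 to 8.29) and Hmga2 was at 22.5 CPM (others 13.03 to 14.3). Pdgfra was at 183 CPM (others 89.8 to 102) and Rora was at 92.7 CPM (others 28.5 to 36.9). Stab2 was at 14.6 CPM (others 2.05 to 4.02). In P0 replicate 4, Hoxa5 was at 31.5 CPM (others 22.2 to 23.5) and Ifit3 was at 5.11 CPM (others 4.88 to 4.88). Tmem212 was at 7.89 CPM (others 6.30 to 6.49).

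In E16 replicate 1, Tpsab1 was at 0.632 CPM (others 0.993 to 1.03). In E16 replicate 2, Adm was at 1.85 CPM (others 0.869 to 0.996) and Ccl11 was at 51.0 CPM (others 39.3 to 41.0). In E16 replicate 3, Ccl6 was at 3.69 CPM (others 2.53 to 2.64) and Mcidas was at 2.56 CPM (others 3.72 to 3.87). In E16 replicate 4, Anln was at 161 CPM (others 142 to 144) and Etv5 was at 395 CPM (others 495 to 498). Inmt was at 1.39 CPM (others 0.308 to 0.448) and Mki67 was at 943 CPM (others 652 to 675). Wnt4 was at 2.04 CPM (others 2.91 to 3.06).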

How the results depend on the processing

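More genes were called higher than lower in every setting run except scaling to library totals only (3340 higher, 4074 lower). The number of called genes was 1371 (985 higher, 386 lower) when a change of at least 2-fold was tested with glmTreat, against 7400. When 1 library was left out in turn it ran from 5720 to 8576 (3116 to 4438 higher, 2604 to 4138 lower), lowest without E16 replicate 3 and highest without P0 replicate 3. A difference between the stage changes of CKO and control lungs was called for 17 genes by DESeq2, for 0 to 1 genes by edgeR when 1 library was left out, and for 0 without the CKO and control libraries that carry thymus RNA (671 at an unadjusted p under 0.05). For the DESeq2 count the cause was not tested. Of 176 genes named, 162 were called, 150 of them in the same direction in every setting but the 2-fold minimum, and 0 called genes reversed. With library totals as the only scaling the median of the respiratory chain list was -0.04 and that of the WNT list -0.01, against 0.06 and 0.12 with trimmed-mean scaling.

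Genes that did not pass the test and changed sign were as follows, and the cause was not tested. With 1 library left out, the log2 change ran from -0.038 (without P0 replicate 3) to 0.27 for Acta2, from -0.16 (without P0 replicate 2) to 0.27 for Col1a1, from -0.46 (without P0 replicate 1) to 0.49 for Dlk1, from -0.14 (without P0 replicate 1) to 0.54 for Fkbp5, from -0.16 (without P0 replicate 2) to 0.27 for Foxj1, from -0.38 to 0.027 (without P0 replicate 1) for Hba-x, from -1.83 (without P0 replicate 3) to 0.90 for Lin28b and from -0.26 to 0.052 (without P0 replicate 3) for Tbx4. Acta2 and Col1a1 were also below 0 without E16 replicate 4, and Col1a1 without E16 replicate 3. With library totals only, Acta2 was at -0.020 and Col1a1 at -0.040. Dlk1 was at -0.15 with limma-voom and with the replicate block, and Lin28b at -0.66 and -0.81. With the Xist covariate Fkbp5 was at -0.13, Lin28b at -0.28 and Tbx4 at 0.00017.

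Replicate numbers do not pair the lungs: the deviations of same-numbered libraries correlated at -0.0734, -0.00361, -0.0335 and -0.125, and no E16 library correlated best with its own number. With the replicate number as a block 3269 genes were higher and 2849 lower. With 4 libraries a group and 28006369 to 36256804 counts each, genes under about 0.314 CPM were mostly not tested.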

Other observations

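The respiratory chain, which makes ATP in mitochondria, was called in few members, and 4 of 44 tested members were higher and 1 lower at P0, with a median log2 change of 0.06 (5 and 9 of 44 without replicate 3, median -0.04 without replicate 3, 1 to 2 higher without any 1 of P0 replicate 2 and E16 replicates 1, 2, 3 and 4). Ndufb10, a subunit of complex I, was at 35.98 to 45.7 CPM at P0, 26.0 to 31.4 at E16. Sdha, a subunit of complex II, was lower (178 to 237 CPM at P0, 245 to 269.7 at E16).

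Of mast cell and type 2 immunity genes 13 of 22 members passed the filter, 1 of them only through the P0 libraries, and 9 of 13 tested members were higher and 0 lower at P0, with a median log2 change of 2.26 (median 2.26 over members that passed in both groups, 8 and 0 of 13 without replicate 3). P0 lungs had 4.50, 5.02, 4.91 and 5.11 CPM of Tpsab1, against 0.632, 1.03, 0.996 and 0.993 CPM in E16 lungs. This tryptase of mast cells had no overlap between stages (log2 change of 2.42 ± 0.23 (SE), adjusted p = 0.00014). Areg, the EGF receptor ligand amphiregulin, was at 16.9 to 45.4 CPM at P0, 5.37 to 6.98 at E16, and Arg1, arginase of alternatively activated macrophages and innate lymphoid cells, at 3.36 to 25.6 CPM at P0, 0.205 to 0.369 at E16. Of chemokines and cytokines 15 of 29 members passed the filter, 1 of them only through the P0 libraries, and 8 of 15 tested members were higher and 1 lower at P0, with a median log2 change of 0.89 (median 0.81 over members that passed in both groups, 10 and 1 of 17 without replicate 3, median 1.65 without replicate 3, 13 higher without any 1 of E16 replicates 2 and 3). Cxcl16, a membrane-bound chemokine, was at 20.6 to 33.1 CPM at P0, 3.77 to 4.52 at E16, and Ccl6, a myeloid chemokine, at 34.3 to 94.96 CPM at P0, 2.53 to 3.69 at E16.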
